A study of Mus musculus with 14 samples.

Results

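RNA-seq libraries of a mouse embryonic stem (ES) cell line lacking Tet1 and Tet2 (Tet1/2 DKO) were compared between 24 h and 72 h of mTOR inhibition. The libraries were chosen by their source name, E14 TET1/2 DKO at 72 or at 24 hours, which gave 4 libraries, 2 at each time, out of 14 in the series. E14 is an established mouse ES cell line, and the DKO line is 1 clone of it from which Cas9 cut large parts of both genes. All cells grew in serum and LIF on gelatin without feeder cells. The mTOR inhibitor was Ink128, and libraries at 0 h came from cells without it. Levels are also given for the DKO cells at 0 h (n = 2) and the same step for wild-type E14 cells at 24 h and 72 h (n = 2 each). All 14 libraries, with wild-type cells at 0 h and 144 h among them, entered the filter on low values and the estimate of the spread behind each call.

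mTOR is a kinase that couples nutrient supply to protein synthesis and growth. When it is inhibited, mouse ES cells and blastocysts enter a slow, reversible state that resembles diapause, the natural pause of the early embryo. TET enzymes oxidize methylated cytosine and so start its removal, and Tet1 and Tet2 are the main members in ES cells. The comparison asks what changes in treated cells without them after the initial day, between 24 h and 72 h.

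The values are length-scaled relative abundances (TPM), which sum to 1000000 in every library and keep no read depth, so no counting error can be given from them. The study refers to a figure for sequencing depth, which was not read here. Between 29077 and 29927 gene identifiers were above 0 in the 4 libraries, and the 10 most abundant genes held 26.0% and 24.9% of TPM at 24 h and 22.0% and 18.8% at 72 h. Tet2 stood at 15.9 and 20 TPM at 24 h and 21.7 and 18.7 TPM at 72 h, against 115 and 109.5 and 114 and 114 TPM in wild-type cells, so all 4 libraries lay on the side of their label. Tet1 was not low in the same way (195 and 176 TPM at 24 h against 274 and 255 in wild-type cells), and these gene-level values do not separate the deleted exons from those left in place. Both DKO libraries at 24 h correlated better with a wild-type library of the other replicate number, replicate 2 with wild-type replicate 1 (Pearson r = 0.985 over 15878 genes) and replicate 1 with wild-type replicate 2 (0.978), than with each other (0.976). Their Tet2 levels are those of the DKO line. The ES cell markers Pou5f1, Sox2, Nanog, Zfp42, Esrrb and Dppa5a summed to 3785 and 3830 TPM at 24 h and 5102 and 4495 TPM at 72 h, and all 6 were present in each library. Dppa5a alone had a higher mean at 72 h, and the other 5 summed to 2268 and 2317 TPM at 24 h and 2090.0 and 2016 TPM at 72 h. Summed markers of other cell types were far lower, at 11.5 to 47.5 TPM for primitive endoderm and 2.53 to 8.18 TPM for mesendoderm, neuroectoderm, trophectoderm and fibroblasts, with 4 of 7 fibroblast markers under 0.1 TPM in all 4 libraries.

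Between 24 h and 72 h, 823 genes rose and 285 fell in DKO cells among the 15878 genes tested, which is 5.18% called higher, 1.79% called lower and 6.98% called in either direction. A gene was tested when its mean over the 14 libraries was at least 1 TPM, and called when its adjusted p was under 0.05 in limma on log2(TPM + 1). On that scale fold changes of genes with low TPM are understated. Over all genes the log2 fold change had a median of 0.12, so a value near 0.12 is no change relative to the typical gene. With each library centred on its median gene, this shift was 0.02 and 467 genes rose and 505 fell, so that 48.0% of calls were higher in place of 74.3%. With the study's spike-in scaling, under which 18232 genes reached the minimum mean and were tested, the shift was 0.37, 241 genes rose and 17 fell, and 93.4% of calls were higher. Over the same 15878 genes as before, that scaling gave a shift of 0.38, with 219 higher, 17 lower and 92.8% of calls higher. All 1108 called genes kept their direction under both scalings. In bulk RNA, a change in the share of cells that express a gene and a change in RNA per cell cannot be told apart.

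The number of calls moved with the libraries in the fit and with the block. With only the 4 libraries of the contrast, in place of all 14, 1 gene was called, and 2912 had p under 0.05 before adjustment. Blocking on the replicate number within each genotype gave 1723 genes higher (10.9%) and 564 lower (3.55%), and all 1108 genes were among them. Without DKO 24 h replicate 1 or replicate 2, 587 and 191 genes rose and 170 and 69 fell. Without DKO 72 h replicate 1, 156 rose and 49 fell, and without DKO 72 h replicate 2, 5 rose and 2 fell. These 7 genes, among them Lef1, Lefty2, Slc16a3, Rhox5 and Galnt6, were called whichever of the 4 libraries was left out. Libraries of the 2 times did not overlap for 6128 genes with higher values (38.6%) and 2337 with lower values (14.7%), so separation of 2 against 2 libraries is common here.

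**Figure D1:**
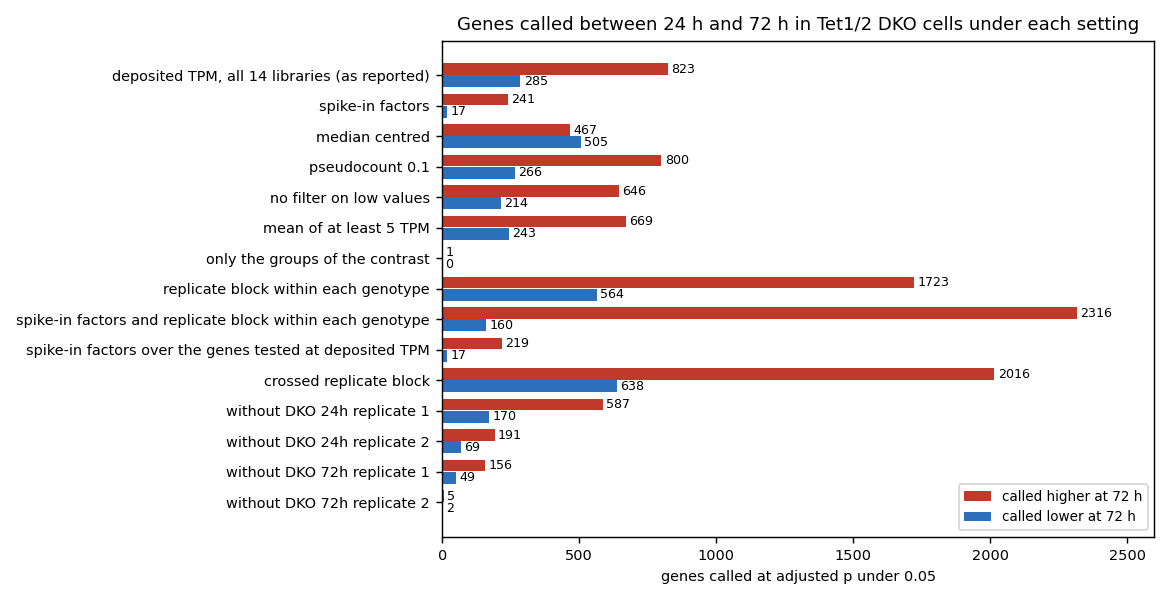
Number of genes called higher (red) and lower (blue) at 72 h than at 24 h in Tet1/2 DKO cells (x axis, genes at adjusted p under 0.05) under each setting (y axis). The deposited TPM gave 823 and 285, the replicate block raised both counts, and leaving out DKO 72 h replicate 2 lowered them to 5 and 2.

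The largest rises were those of genes transcribed in the embryo at the 2-cell stage. Zscan4 genes encode zinc-finger proteins that a small, changing share of cultured ES cells expresses. Zscan4f stood at 4.89 and 2.23 TPM at 24 h and 43.1 and 70.1 TPM at 72 h, after 25 and 12.4 TPM at 0 h (log2 fold change 3.68 ± 0.46, adjusted p = 0.0054). Zscan4c stood at 3.73 and 1.95 TPM at 24 h and 33.4 and 51.4 TPM at 72 h, after 17.2 and 8.37 TPM at 0 h (log2 fold change 3.51 ± 0.43, adjusted p = 0.0053). Both genes were therefore lowest at 24 h in both libraries and highest at 72 h in both. The Zscan4 copies on chromosome 7 were 9 of the 12 largest rises among genes that met the naming conditions, with log2 fold changes from 2.80 (Zscan4-ps1) to 3.68 (Zscan4f). Between 62.4% and 95.2% of the 31-base words in each copy's transcripts also occur in another copy, so the division of reads among copies is uncertain and they are better read as 1 family. Of 15 tested genes of a 2-cell-like list, 14 rose, at a median of 2.60 against 0.12 for all genes, of which 5.18% were called higher. Zscan4 genes are 6 of these 15. Duxf3, a copy of the factor Dux that switches this programme on, stood at 0.493 and 0.258 TPM at 24 h and 1.98 and 2.61 TPM at 72 h (log2 fold change 1.26 ± 0.31, adjusted p = 0.042). It was also low at 0 h (0.709 and 0.29 TPM). Its mean of at least 1 TPM, by which it was tested, thus rests on other libraries, those at 72 h among them. Tmem92 stood at 0.601 and 0.333 TPM at 24 h and 4.4 and 7.15 TPM at 72 h (log2 fold change 2.18 ± 0.38, adjusted p = 0.012). Usp17lb, a deubiquitinase gene of another multicopy family, stood at 0.886 and 0.319 TPM at 24 h and 5.38 and 7.93 TPM at 72 h (log2 fold change 2.26 ± 0.54, adjusted p = 0.036). The member that did not pass was Tcstv3 (log2 fold change 1.54 ± 0.43, adjusted p = 0.058 and 0.049 with the replicate block), whose libraries also did not overlap. All values of these genes at 72 h lay above all values at 24 h. Of the 14 called genes, 9 and 7 were still called without DKO 24 h replicate 1 and replicate 2, and 8 and 0 without DKO 72 h replicate 1 and replicate 2. Called higher and lower were 15 and 0 with the replicate block, 13 and 0 with median centring and 15 and 0 with spike-in factors.

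A further stretch of genes that rose lies on chromosome 12. In the stretch between positions 87425840 and 88324026 (mm10), 17 of 25 tested genes rose and none fell, from 1.18 to 2.94 on the log2 scale. Over all genes 5.18% were called higher. All 17 carry predicted-gene or clone names, and 1 of them, Gm5662, is on the 2-cell-like list. Gm5662 stood at 3.12 and 0.973 TPM at 24 h and 19.8 and 22.1 TPM at 72 h (log2 fold change 2.94 ± 0.45, adjusted p = 0.0083). Gm8300 stood at 1.34 and 0.903 TPM at 24 h and 10.4 and 12.6 TPM at 72 h (log2 fold change 2.56 ± 0.40, adjusted p = 0.0087). BB287469 stood at 0.774 and 0.38 TPM at 24 h and 6.29 and 7.76 TPM at 72 h (log2 fold change 2.35 ± 0.30, adjusted p = 0.0061) and is also among the 12 largest rises. The genes at the edge of the stretch that do not belong to this family, Alkbh1, Slirp and Snw1, were not called. Where copies of this family share sequence, the division of reads among them is uncertain. Without DKO 24 h replicate 1 or replicate 2, 15 and 9 genes of the stretch were called, and without DKO 72 h replicate 1 or replicate 2, 10 and 0.

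**Figure D2:**
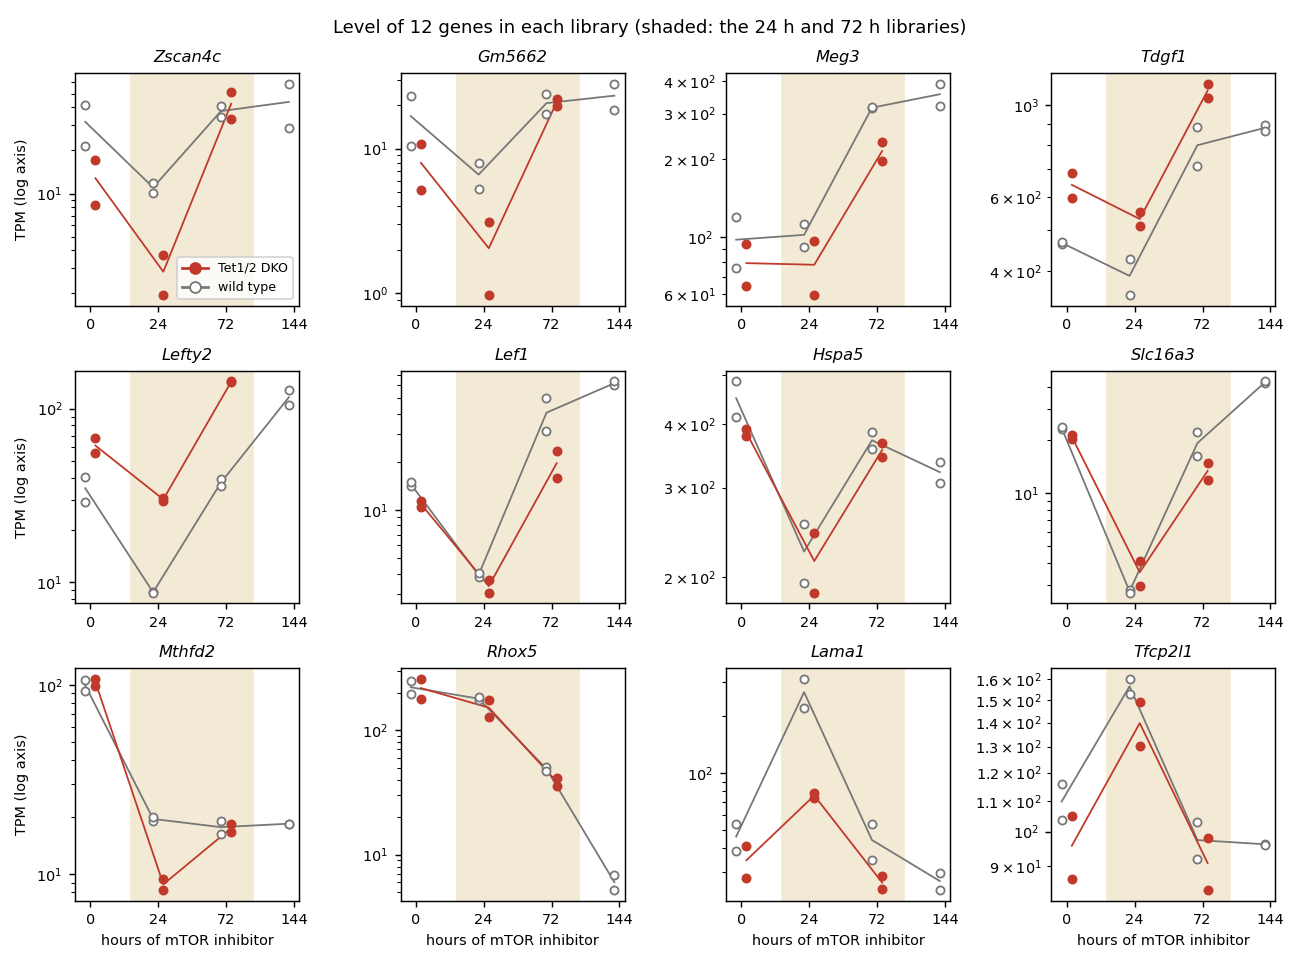
TPM (y axis, logarithmic) of 12 genes in each library by hours of mTOR inhibitor (x axis, time points evenly spaced), for Tet1/2 DKO (filled red points) and wild-type cells (open grey points), with lines through the means of the 2 libraries. In the shaded 24 h and 72 h libraries the DKO values of the first 9 genes rise and those of Rhox5, Lama1 and Tfcp2l1 fall.

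The other stretch of chromosome 12 is the imprinted Dlk1-Meg3 domain. It carries long noncoding RNAs, microRNAs and small nucleolar RNAs expressed from the maternal chromosome, and the protein-coding genes Dlk1 and Rtl1 expressed from the paternal one. Between positions 109452823 and 109749460, 37 of 70 tested genes rose and none fell, at a median of 1.27. Meg3, the noncoding RNA for which the domain is named, stood at 59.7 and 96.6 TPM at 24 h and 196 and 234 TPM at 72 h (log2 fold change 1.48 ± 0.27, adjusted p = 0.014). Rian, the host of many small nucleolar RNAs, stood at 185 and 281 TPM at 24 h and 588 and 641 TPM at 72 h (log2 fold change 1.42 ± 0.23, adjusted p = 0.0098). Mirg, a microRNA host, stood at 29.5 and 49.3 TPM at 24 h and 82.8 and 84.9 TPM at 72 h (log2 fold change 1.11 ± 0.26, adjusted p = 0.033). In all 3, both libraries at 72 h exceeded both at 24 h. Dlk1, which encodes a Notch-related membrane protein, also rose, from 2.97 and 2.24 TPM to 5.85 and 6.55 TPM (log2 fold change 1.002 ± 0.24, adjusted p = 0.037). Rtl1 stood at 0 and 1.07 TPM at 24 h and 1.83 and 1.88 TPM at 72 h and was not called (log2 fold change 0.99 ± 0.50, adjusted p = 0.25). Of the 70 genes, 61 span less than 200 bp, and 20 of those lie inside a longer tested gene, so they need not be separate measurements. The other short genes lie on the strand of Meg3, Rian and Mirg, between these long RNAs. Whether they are separate measurements was not tested. Of the 37 called genes, 29 are short. Among the 9 longer genes, 8 rose. Together the 2 stretches held 54 of the 82 genes of chromosome 12 that rose, and 28 of the 602 tested genes elsewhere on it rose (4.65%, against 5.18% of all genes). The bounds of both stretches were set after the calls were seen. Without DKO 24 h replicate 1 or replicate 2, 16 genes of the domain were called in either case, and without DKO 72 h replicate 1 or replicate 2, 12 and 0.

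**Figure D3:**
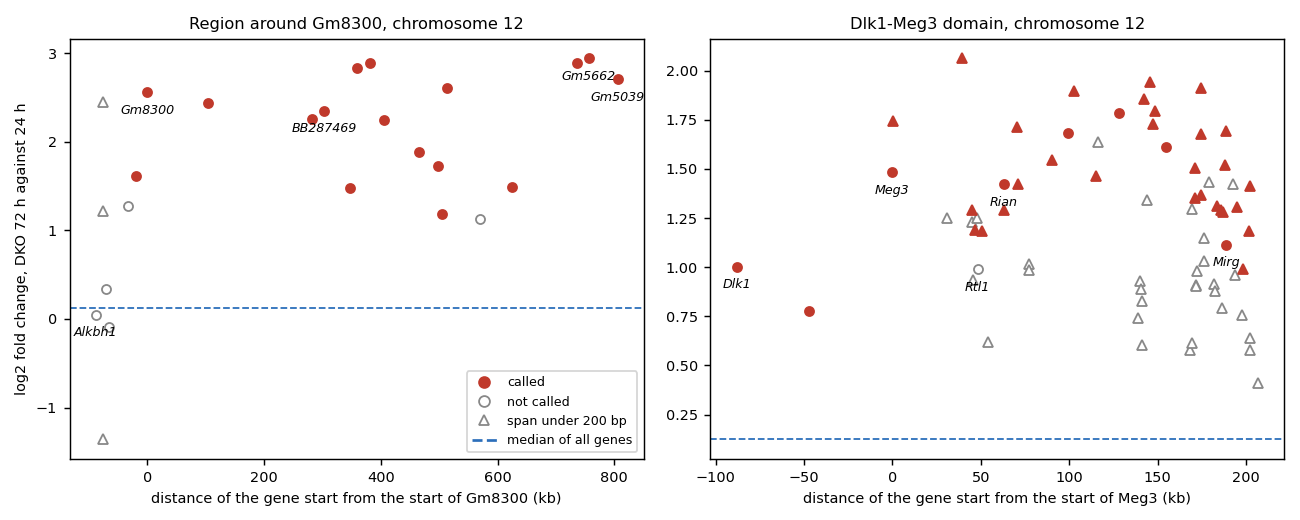
Log2 fold change at 72 h against 24 h in Tet1/2 DKO cells (y axis) of each tested gene by the distance of its start from the start of Gm8300 (left) or Meg3 (right) in kilobases (x axis), with called genes filled, genes spanning less than 200 bp as triangles and the median of all genes as a dashed line. All 70 genes of the right panel lie above the dashed line, and 37 are called.

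Of 25 tested genes on the imprinted list, 6 rose and 1 fell, at a median of 0.13 and where 5.18% and 1.79% of all genes were called higher and lower, and 4 of the 6 belong to the Dlk1-Meg3 domain. The other risers were Nnat, a small membrane protein gene, at 2.85 and 2.98 TPM at 24 h and 9.32 and 8.31 TPM at 72 h (log2 fold change 1.32 ± 0.25, adjusted p = 0.016), and Impact, a translational regulator (log2 fold change 0.72 ± 0.19, adjusted p = 0.0495). Igf2, a fetal growth factor, stood at 3.16 and 7.54 TPM at 24 h and 0.862 and 1.22 TPM at 72 h (log2 fold change −1.55 ± 0.34, adjusted p = 0.026). H19, the noncoding RNA next to Igf2, stood at 115 and 83.7 TPM at 24 h and 29.8 and 16.7 TPM at 72 h but did not pass (log2 fold change −2.08 ± 0.84, adjusted p = 0.15 and 0.017 with the replicate block). Of the 7 called genes, 3 and 3 were still called without DKO 24 h replicate 1 and replicate 2, and 1 and 0 without DKO 72 h replicate 1 and replicate 2. Median centring gave higher and lower counts of 4 and 1, spike-in factors 4 and 1 and the replicate block 8 and 2.

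Of 12 tested Nodal, BMP and Id genes, 3 rose and 1 fell, where 5.18% and 1.79% of all genes were called higher and lower. Nodal is a TGF-beta family ligand that ES cells secrete, Tdgf1 (Cripto) is its coreceptor, and Lefty1 and Lefty2 are secreted inhibitors that the pathway itself induces. Lefty2 stood at 29.6 and 30.5 TPM at 24 h and 144 and 142 TPM at 72 h, after 55.2 and 67.3 TPM at 0 h (log2 fold change 2.21 ± 0.15, adjusted p = 0.00056). Tdgf1 stood at 513 and 552 TPM at 24 h and 1039.8 and 1122 TPM at 72 h (log2 fold change 1.02 ± 0.13, adjusted p = 0.0061). For both genes the replicates lay close together and the 2 times were far apart. Lefty1 had wider replicates, 31.5 and 10.1 TPM at 24 h and 60.2 and 70.6 TPM at 72 h, and did not pass (log2 fold change 1.80 ± 0.54, adjusted p = 0.069 and 0.03 with the replicate block). Smad6, an inhibitor of BMP signalling, fell from 6.81 and 8.8 TPM to 2.95 and 2.63 TPM (log2 fold change −1.21 ± 0.22, adjusted p = 0.016). The ligand gene Nodal was not called. Of the 4 called genes of the list, 4 and 3 were still called without DKO 24 h replicate 1 and replicate 2, and 3 and 2 without DKO 72 h replicate 1 and replicate 2. Under the replicate block, median centring and spike-in factors the higher and lower counts were 4 and 1, 3 and 1 and 3 and 0.

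Of 17 tested formative and primed pluripotency genes, which include Lefty2 of the list above, 3 rose and none fell, at a median of 0.19. Lef1, a transcription factor of Wnt signalling, stood at 3.04 and 3.63 TPM at 24 h and 15.7 and 23.4 TPM at 72 h (log2 fold change 2.22 ± 0.21, adjusted p = 0.0027), and the other 2 were Lefty2 and the de novo methyltransferase gene Dnmt3a. Otx2, a factor of the primed state, stood at 10.5 and 16.6 TPM at 24 h and 19.9 and 20.6 TPM at 72 h and was not called (log2 fold change 0.58 ± 0.22, adjusted p = 0.13 and 0.043 with the replicate block). Among 25 tested naive pluripotency genes, 3 rose and 3 fell, where 5.18% and 1.79% of all genes were called higher and lower. The naive list had a median of −0.14 against 0.12 for all genes, and of 0.12 against 0.37 with spike-in scaling, so it was below that of all genes under both. Tfcp2l1, a factor of the naive network, fell from 149 and 130.4 TPM to 98 and 83.6 TPM (log2 fold change −0.62 ± 0.12, adjusted p = 0.018). Klf2, another such factor, fell from 124 and 124 TPM to 72.8 and 91 TPM (log2 fold change −0.60 ± 0.15, adjusted p = 0.046). The libraries of Tfcp2l1 at 72 h overlapped those at 0 h (86.5 and 105 TPM). Klf2 was higher at 0 h (141 and 168 TPM) than at either later time. The other fall was that of Tcl1, an activator of AKT kinase (log2 fold change −0.59 ± 0.12, adjusted p = 0.019). Besides Tdgf1, the risers were Dppa5a and Alpl. Dppa5a, an RNA-binding protein of pluripotent cells, stood at 1517 and 1512 TPM at 24 h and 3012 and 2479 TPM at 72 h (log2 fold change 0.85 ± 0.18, adjusted p = 0.024). Its levels at 0 h, 2257 and 1958 TPM, lay between those of the later times. Alpl, the tissue-nonspecific alkaline phosphatase, stood at 127 and 134 TPM at 24 h and 171 and 181 TPM at 72 h (log2 fold change 0.43 ± 0.09, adjusted p = 0.023). Nanog stood at 229.8 and 189.6 TPM at 24 h and 187 and 125 TPM at 72 h and was not called (log2 fold change −0.45 ± 0.20, adjusted p = 0.18). The list thus held called genes of both directions, and its libraries did not overlap upward for 5 genes and downward for 12 of the 25, where 38.6% and 14.7% of all genes did so. Of the 6 called naive genes, 2 and 2 were still called without DKO 24 h replicate 1 and replicate 2, and 2 and 0 without DKO 72 h replicate 1 and replicate 2. The counts higher and lower for naive genes were 4 and 3 with the replicate block, 2 and 3 with median centring and 1 and 0 with spike-in factors. Called higher and lower for formative and primed genes were 6 and 0 with the replicate block, 3 and 0 with median centring and 3 and 0 with spike-in factors.

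Of 6 tested neuroectoderm genes, 3 rose and none fell, where 5.18% of all genes were called higher. Sox1, an early neural factor, stood at 1.23 and 1.77 TPM at 24 h and 3.64 and 3.46 TPM at 72 h (log2 fold change 0.87 ± 0.22, adjusted p = 0.044). Nes, an intermediate filament gene, stood at 2.94 and 4.15 TPM at 24 h and 6.21 and 6.91 TPM at 72 h (log2 fold change 0.74 ± 0.17, adjusted p = 0.032). Tubb3, a tubulin gene, stood at 24.5 and 21.6 TPM at 24 h and 42.1 and 35.3 TPM at 72 h (log2 fold change 0.72 ± 0.15, adjusted p = 0.019). Nes (9.44 and 8.04 TPM) and Tubb3 (59.7 and 70.5 TPM) were higher at 0 h than in either library at 72 h. Sox1 (2.42 and 2.61 TPM) was lower at 0 h than at 72 h. Of the 3, 1 and 1 were still called without DKO 24 h replicate 1 and replicate 2, and 0 and 0 without DKO 72 h replicate 1 and replicate 2. Median centring gave higher and lower counts of 1 and 0, spike-in factors 0 and 0 and the replicate block 3 and 0. Pax6 and Neurog2 stayed at or under 1.18 TPM in all 4 libraries. None of 4 tested mesendoderm genes was called, and the largest values were those of Foxa1 (log2 fold change 0.81 ± 0.30, adjusted p = 0.13 and 0.037 with the replicate block) and T (log2 fold change 0.41 ± 0.20, adjusted p = 0.23). None of 9 tested trophectoderm genes was called either, including Tfap2c (log2 fold change −1.37 ± 0.75, adjusted p = 0.28) and Krt18 (log2 fold change −1.04 ± 0.57, adjusted p = 0.28). The 3 tested fibroblast genes, with Fbn1 (log2 fold change 0.31 ± 0.20, adjusted p = 0.35) and Twist1 (log2 fold change 0.31 ± 0.21, adjusted p = 0.39) the largest, were not called.

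Of 18 tested primitive endoderm genes, 3 fell and none rose, where 1.79% of all genes were called lower. Primitive endoderm is the extraembryonic layer that lines the blastocyst cavity and lays down basement membrane. Lama1, a laminin chain of that membrane, stood at 78.1 and 73.9 TPM at 24 h and 28.5 and 24.3 TPM at 72 h (log2 fold change −1.49 ± 0.26, adjusted p = 0.012). Hnf4a, a transcription factor of endoderm, stood at 4.89 and 4.12 TPM at 24 h and 1.1 and 1.28 TPM at 72 h (log2 fold change −1.33 ± 0.18, adjusted p = 0.0063). Apoe, a lipid carrier, stood at 167 and 277 TPM at 24 h and 67.3 and 127 TPM at 72 h (log2 fold change −1.21 ± 0.31, adjusted p = 0.045). In each of the 3, both libraries at 72 h lay below both at 24 h. All 18 tested genes of the list lay below 0, from −1.59 to −0.098 with a median of −0.75, but only these 3 passed. Of the 5 defining markers, Gata4 passed only with the replicate block (adjusted p = 0.0287), and Gata6, Sox17, Sox7 and Pdgfra passed in neither fit. Together these 5 summed to 47.5 and 16.4 TPM at 24 h and 21.9 and 11.5 TPM at 72 h, so the replicates at 24 h differed by more than the means of the 2 times. Of 18 tested genes of extracellular matrix and adhesion, Lama1 fell and none rose, at a median of −0.23 against 0.12 for all genes and of 0.03 against 0.37 with spike-in scaling, and the counts higher and lower were 0 and 2 with the replicate block and 0 and 0 with spike-in factors. Of the 3 called primitive endoderm genes, 3 and 1 were still called without DKO 24 h replicate 1 and replicate 2, and 1 and 0 without DKO 72 h replicate 1 and replicate 2. Under the replicate block, median centring and spike-in factors the higher and lower counts for primitive endoderm were 0 and 5, 0 and 4 and 0 and 0.

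The largest falls were of genes with varied functions. Rhox5, a homeobox gene of the X chromosome, fell from 128 and 175 TPM to 35.5 and 41.6 TPM (log2 fold change −1.93 ± 0.21, adjusted p = 0.0037), after 176 and 259 TPM at 0 h. Klhdc7a was listed at 0 in both libraries at 72 h, against 3.04 and 6.01 TPM at 24 h (adjusted p = 0.014). Zc3hav1, an antiviral RNA-binding protein, stood at 19.5 and 33.3 TPM at 24 h and 7.91 and 4.94 TPM at 72 h (log2 fold change −1.86 ± 0.35, adjusted p = 0.016). Oas1a, a sensor of double-stranded RNA, stood at 5.26 and 8.08 TPM at 24 h and 1.16 and 1.02 TPM at 72 h (log2 fold change −1.85 ± 0.39, adjusted p = 0.023). Oas1a was the only called gene of 9 tested interferon-stimulated genes, where 1.79% of all genes were called lower. The median of that list was 0.17 against 0.12 for all genes. Fabp3, a fatty acid binding protein, stood at 90.03 and 53.2 TPM at 24 h and 21.6 and 19.2 TPM at 72 h (log2 fold change −1.72 ± 0.29, adjusted p = 0.011). Acox3, a peroxisomal oxidase of fatty acids, stood at 9.33 and 15.6 TPM at 24 h and 4.22 and 2.68 TPM at 72 h (log2 fold change −1.58 ± 0.26, adjusted p = 0.01). Klhdc7a (0.388 and 0.821 TPM), Fabp3 (31.8 and 38.4 TPM) and Acox3 (2.98 and 3.41 TPM) were lower at 0 h than in either library at 24 h. For Zc3hav1 (18 and 32.8 TPM at 0 h) and Oas1a (7.11 and 16.5 TPM) the libraries at 0 h and 24 h overlapped. The other falls among the 12 largest were Stard8 (−1.80), Eps8l2 (−1.70), Cpsf4l (−1.63), Nup62cl (−1.56), Igf2 (−1.55) and Parm1 (−1.54) on the log2 scale. Each of these other genes was also lower in both libraries at 0 h than in either at 24 h. Without DKO 72 h replicate 2, Rhox5 alone of these 12 was called.

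Of 13 tested writers and erasers of DNA methylation, 3 rose and none fell, where 6.98% of all genes were called. Dnmt3a, which adds methyl groups to unmethylated DNA, stood at 27.1 and 27.8 TPM at 24 h and 73.9 and 62.2 TPM at 72 h, after 61 and 53.8 TPM at 0 h (log2 fold change 1.27 ± 0.22, adjusted p = 0.012). Tdg, the glycosylase that removes the bases TET enzymes oxidize, stood at 28.3 and 25.7 TPM at 24 h and 37.1 and 41 TPM at 72 h (log2 fold change 0.51 ± 0.10, adjusted p = 0.019). The transcript of Tet1 stood at 195 and 176 TPM at 24 h and 238 and 248 TPM at 72 h (log2 fold change 0.39 ± 0.086, adjusted p = 0.026). Tet2 (log2 fold change 0.17 ± 0.13, adjusted p = 0.44) and Tet3, at 10.5 and 11 TPM at 24 h and 11.3 and 10.9 TPM at 72 h (log2 fold change 0.04 ± 0.12, adjusted p = 0.87), were not called. The list had a median of 0.13, and Dnmt1 and Dnmt3b were not called. Of the 3, 3 and 0 were still called without DKO 24 h replicate 1 and replicate 2, and 0 and 0 without DKO 72 h replicate 1 and replicate 2. Of 26 tested germline genes that DNA methylation represses in somatic cells, 3 rose and 1 fell, at a median of 0.23, where 5.18% and 1.79% of all genes were called higher and lower. Brdt, a testis bromodomain protein, stood at 2.85 and 3.32 TPM at 24 h and 7.33 and 5.99 TPM at 72 h (log2 fold change 0.91 ± 0.19, adjusted p = 0.022). Tdrd1, of the pathway that makes piRNAs, stood at 1.16 and 1.71 TPM at 24 h and 3.72 and 3.23 TPM at 72 h (log2 fold change 0.88 ± 0.17, adjusted p = 0.018). Mov10l1, of the same pathway, stood at 17.2 and 20.6 TPM at 24 h and 30.5 and 31.3 TPM at 72 h (log2 fold change 0.69 ± 0.15, adjusted p = 0.024). In these 3 genes the 2 times did not overlap. Fkbp6 fell (log2 fold change −0.45 ± 0.12, adjusted p = 0.047). Among 7 tested Rhox genes, Rhox10 rose, at 6.53 and 6.1 TPM at 24 h and 15 and 14.3 TPM at 72 h (log2 fold change 1.10 ± 0.13, adjusted p = 0.0046), while Rhox5 fell. Of the 6 called genes of these lists, 2 and 3 were still called without DKO 24 h replicate 1 and replicate 2, and 2 and 1 without DKO 72 h replicate 1 and replicate 2. The counts higher and lower for germline genes were 9 and 1 with the replicate block, 2 and 1 with median centring and 1 and 0 with spike-in factors. Called higher and lower for Rhox genes were 1 and 1 with the replicate block, 1 and 3 with median centring and 0 and 1 with spike-in factors. Median centring gave higher and lower counts for writers and erasers of 2 and 0, spike-in factors 1 and 0 and the replicate block 4 and 0.

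Among genes of the unfolded protein response, 9 of 20 tested genes rose and none fell, at a median of 0.48, where 5.18% of all genes were called higher. This response raises chaperones and folding enzymes of the endoplasmic reticulum through the factors ATF6 and XBP1, which act at a promoter motif known as the ER stress response element. Of the 20 genes, 19 lay above the median of all genes. Hspa5 (BiP), the main chaperone of the compartment, stood at 187 and 244 TPM at 24 h and 344 and 367 TPM at 72 h (log2 fold change 0.73 ± 0.15, adjusted p = 0.021). Hsp90b1, its HSP90-type chaperone, stood at 275 and 312 TPM at 24 h and 415 and 462 TPM at 72 h (log2 fold change 0.58 ± 0.12, adjusted p = 0.02). Calr, a chaperone of glycoproteins, stood at 225 and 277 TPM at 24 h and 363 and 402 TPM at 72 h (log2 fold change 0.61 ± 0.12, adjusted p = 0.019). Pdia6, a disulfide isomerase, stood at 95.5 and 114 TPM at 24 h and 166 and 173 TPM at 72 h (log2 fold change 0.70 ± 0.11, adjusted p = 0.0089). These 4 abundant folding factors rose by 0.58 to 0.73 on the log2 scale. Their levels at 0 h were 391 and 379 TPM (Hspa5), 508 and 502 TPM (Hsp90b1), 437 and 499 TPM (Calr) and 204 and 194 TPM (Pdia6). Both libraries at 72 h lay below both at 0 h for each of them. Manf, a secreted stress protein, stood at 38.3 and 54.6 TPM at 24 h and 85.8 and 93.3 TPM at 72 h (log2 fold change 0.95 ± 0.18, adjusted p = 0.015). Sdf2l1, a partner of Hspa5, stood at 14.1 and 19.1 TPM at 24 h and 24.9 and 26.9 TPM at 72 h (log2 fold change 0.63 ± 0.15, adjusted p = 0.033). Xbp1 itself stood at 78.4 and 80.6 TPM at 24 h and 119.9 and 115 TPM at 72 h (log2 fold change 0.56 ± 0.096, adjusted p = 0.012). Manf (102 and 112 TPM) and Sdf2l1 (31.1 and 38.2 TPM) were higher at 0 h than at 72 h, and Xbp1 (96.5 and 90.8 TPM) was lower. In all 7, both libraries at 72 h exceeded both at 24 h, which was also so for 19 of the 20 genes, and for 38.6% of all genes. Of the 9, 2 and 5 were still called without DKO 24 h replicate 1 and replicate 2, and 1 and 0 without DKO 72 h replicate 1 and replicate 2. Under the replicate block, median centring and spike-in factors the higher and lower counts were 12 and 0, 4 and 0 and 1 and 0.

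The promoters of the 4 called genes that hold the element are shown for the letters they share. The motif searched was CCAAT, then any 9 bases, then CCACG, on both strands of RefSeq promoter windows of 300 bases (GRCm38.p6), from 250 before to 50 after the start. Capitals mark the match, with 20 bases on each side, written 5′ to 3′ on the strand of the gene.
Hspa5 (chr2:34772005-34772063, plus strand): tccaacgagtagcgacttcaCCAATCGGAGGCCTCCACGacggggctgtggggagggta
Pdia6 (chr12:17266471-17266529, plus strand): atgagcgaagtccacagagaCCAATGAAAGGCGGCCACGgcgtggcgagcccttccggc
Hsp90b1, upstream match (chr10:86705618-86705676, minus strand): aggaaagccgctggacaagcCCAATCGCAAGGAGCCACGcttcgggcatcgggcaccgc
Hsp90b1, downstream match (chr10:86705513-86705571, minus strand): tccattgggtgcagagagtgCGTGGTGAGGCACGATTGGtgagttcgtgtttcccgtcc
Calr (chr8:84847055-84847113, minus strand): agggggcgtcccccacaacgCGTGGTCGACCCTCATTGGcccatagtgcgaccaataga
The motif reads forward in Hspa5, Pdia6 and the upstream match of Hsp90b1, and as its reverse complement in Calr and the downstream match of Hsp90b1. Its matches began 65 bases (Hspa5) to 212 bases (Hsp90b1) before the start of transcription. It occurred in 39 of all 32851 windows (0.119%). Among the 17 tested unfolded protein response genes with a window it was in 8, of which 4 were among the 8 called genes with a window and 4 among the 9 that were not called, so its presence did not separate called from uncalled members.

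In glycolysis, 7 of 22 tested gene identifiers rose and none fell, at a median of 0.35, where 5.18% of all genes were called higher. Slc16a3, the exporter of lactate, stood at 2.98 and 4.11 TPM at 24 h and 11.9 and 14.8 TPM at 72 h, after 20.3 and 21.5 TPM at 0 h (log2 fold change 1.66 ± 0.16, adjusted p = 0.0027). Ldha, which makes lactate, stood at 180.2 and 151 TPM at 24 h and 241 and 336 TPM at 72 h, after 1277 and 1100.4 TPM at 0 h (log2 fold change 0.78 ± 0.20, adjusted p = 0.046). Both were lowest at 24 h. Pkm, pyruvate kinase, stood at 618 and 611 TPM at 24 h and 967 and 1119 TPM at 72 h (log2 fold change 0.76 ± 0.13, adjusted p = 0.012). Tpi1, triose phosphate isomerase, stood at 25.3 and 17.9 TPM at 24 h and 33.6 and 42.9 TPM at 72 h (log2 fold change 0.81 ± 0.20, adjusted p = 0.041). Slc2a1, the glucose transporter GLUT1, stood at 61.2 and 60.4 TPM at 24 h and 87.3 and 86.3 TPM at 72 h (log2 fold change 0.51 ± 0.089, adjusted p = 0.013). Slc16a3, Ldha, Pkm and Tpi1 were below their 0 h levels in both libraries at 72 h. Of the 7, 5 and 1 were still called without DKO 24 h replicate 1 and replicate 2, and 2 and 1 without DKO 72 h replicate 1 and replicate 2. The counts higher and lower were 9 and 0 with the replicate block, 3 and 0 with median centring and 1 and 0 with spike-in factors.

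In cholesterol synthesis, 7 of 24 tested genes rose and none fell, at a median of 0.36, where 5.18% of all genes were called higher. Sqle, squalene epoxidase, stood at 34.2 and 35.7 TPM at 24 h and 54 and 52.9 TPM at 72 h (log2 fold change 0.60 ± 0.11, adjusted p = 0.016). Msmo1 stood at 19.3 and 22 TPM at 24 h and 32.8 and 34.4 TPM at 72 h (log2 fold change 0.68 ± 0.13, adjusted p = 0.018). Hsd17b7 stood at 3.75 and 4.06 TPM at 24 h and 7.06 and 7.05 TPM at 72 h (log2 fold change 0.72 ± 0.12, adjusted p = 0.012). These 3 enzymes act at late steps of the pathway. Insig1, a feedback regulator of the pathway, stood at 18.3 and 20.6 TPM at 24 h and 31.6 and 28.8 TPM at 72 h (log2 fold change 0.61 ± 0.11, adjusted p = 0.016). In fatty acid synthesis, 3 of 12 rose, at a median of 0.34, namely Fasn, fatty acid synthase, at 76.9 and 92.3 TPM at 24 h and 128 and 141 TPM at 72 h (log2 fold change 0.67 ± 0.12, adjusted p = 0.016), Acaca (log2 fold change 0.50 ± 0.082, adjusted p = 0.01) and Elovl6 (log2 fold change 0.51 ± 0.10, adjusted p = 0.018). For these lipid genes both libraries at 72 h exceeded both at 24 h. Elovl6 at 72 h (170 and 154 TPM) was also above its 0 h levels (103 and 109 TPM). The other named lipid genes were below their 0 h levels in both libraries at 72 h, with Sqle at 68.3 and 81.3 TPM and Fasn at 165 and 169 TPM at 0 h. Of the 7 cholesterol genes, 2 and 2 were still called without DKO 24 h replicate 1 and replicate 2, and 0 and 0 without DKO 72 h replicate 1 and replicate 2. Of the 3 fatty acid genes, 2 and 1 were still called without DKO 24 h replicate 1 and replicate 2, and 1 and 0 without DKO 72 h replicate 1 and replicate 2. Called higher and lower for cholesterol synthesis were 11 and 0 with the replicate block, 5 and 0 with median centring and 0 and 0 with spike-in factors. Median centring gave higher and lower counts for fatty acid synthesis of 2 and 0, spike-in factors 0 and 0 and the replicate block 5 and 0.

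All 13 genes encoded by mitochondrial DNA lay above the median of all genes, from 0.22 to 0.87 on the log2 scale with a median of 0.56, and 2 passed. These were mt-Cytb, at 3111 and 2700.0 TPM at 24 h and 4511 and 5093 TPM at 72 h (log2 fold change 0.73 ± 0.15, adjusted p = 0.021), and mt-Nd6, at 361 and 327 TPM at 24 h and 494 and 516 TPM at 72 h (log2 fold change 0.55 ± 0.14, adjusted p = 0.046), which lies opposite mt-Nd5. Of the 2, 1 and 0 were still called without DKO 24 h replicate 1 and replicate 2, and 0 and 0 without DKO 72 h replicate 1 and replicate 2. Under the replicate block, median centring and spike-in factors the higher and lower counts were 6 and 0, 1 and 0 and 0 and 0. Of 40 nuclear genes of the respiratory chain, 4 rose and none fell, at a median of 0.16 against 0.12 for all genes, of which 5.18% were called higher. They were Ndufa1 of complex I, at 42.8 and 63.1 TPM at 24 h and 100.05 and 114 TPM at 72 h (log2 fold change 1.03 ± 0.18, adjusted p = 0.012), Ndufa4 (log2 fold change 0.53 ± 0.12, adjusted p = 0.029), Cox6c (log2 fold change 0.67 ± 0.16, adjusted p = 0.034) and Atp5d (log2 fold change 0.48 ± 0.11, adjusted p = 0.026). Of the 4 called genes of the respiratory chain, 1 and 3 were still called without DKO 24 h replicate 1 and replicate 2, and 2 and 0 without DKO 72 h replicate 1 and replicate 2. The counts higher and lower for this list were 8 and 1 with the replicate block, 1 and 0 with median centring and 1 and 0 with spike-in factors.

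In the amino acid response, which the factor ATF4 controls, 3 of 25 tested genes rose and none fell, at a median of 0.14. Its count, and those of the other lists of protein synthesis and growth given next, stand against 5.18% of all genes called higher and 1.79% called lower. Mthfd2, a mitochondrial enzyme of folate metabolism, stood at 8.24 and 9.42 TPM at 24 h and 16.6 and 18.3 TPM at 72 h, after 108 and 98.8 TPM at 0 h (log2 fold change 0.91 ± 0.11, adjusted p = 0.0047). Pycr1 (log2 fold change 0.78 ± 0.14, adjusted p = 0.014) and Aldh18a1 (log2 fold change 0.59 ± 0.12, adjusted p = 0.022), both enzymes of proline synthesis, were the others. Of the 3, 2 and 2 were still called without DKO 24 h replicate 1 and replicate 2, and 1 and 0 without DKO 72 h replicate 1 and replicate 2. Called higher and lower were 5 and 1 with the replicate block, 3 and 1 with median centring and 1 and 0 with spike-in factors. Of 20 tested aminoacyl-tRNA synthetases, Iars (log2 fold change 0.33 ± 0.086, adjusted p = 0.046) and Yars (log2 fold change 0.28 ± 0.074, adjusted p = 0.047) rose and Qars fell (log2 fold change −0.38 ± 0.08, adjusted p = 0.023). None of 81 cytosolic ribosomal protein genes was called, at a median of −0.021 (0.24 with spike-in scaling, against 0.37 for all genes), with Rpl22l1 (log2 fold change 0.52 ± 0.22, adjusted p = 0.18) and Rps20 (log2 fold change −0.33 ± 0.10, adjusted p = 0.079 and 0.039 with the replicate block) at the ends. Of 36 tested ribosome biogenesis genes, Nop16 (log2 fold change 0.66 ± 0.13, adjusted p = 0.017), Rrp1b (log2 fold change 0.49 ± 0.089, adjusted p = 0.014) and Wdr12 (log2 fold change 0.44 ± 0.10, adjusted p = 0.031) rose, at a list median of 0.15 against 0.12 for all genes. In the MYC network, 3 of 11 tested genes rose, all of the partner proteins around MYC, namely Max (log2 fold change 0.41 ± 0.093, adjusted p = 0.029), Mlx (log2 fold change 0.40 ± 0.09, adjusted p = 0.03) and Mxi1 (log2 fold change 0.47 ± 0.12, adjusted p = 0.044). Of the 9 called genes of these lists, 2 and 0 were still called without DKO 24 h replicate 1 and replicate 2, and 0 and 0 without DKO 72 h replicate 1 and replicate 2. With the replicate block the counts higher and lower were 6 and 0 for ribosome biogenesis and 1 and 1 for ribosomal proteins. With median centring they were 2 and 1 for ribosome biogenesis, 0 and 1 for synthetases and 0 and 0 for the MYC network, and with spike-in factors none of these lists held a call.

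Of 27 tested mitosis genes, 3 fell and none rose, where 1.79% of all genes were called lower. They were Ndc80 of the kinetochore (log2 fold change −0.44 ± 0.097, adjusted p = 0.026), Cdc20, an activator of the anaphase-promoting complex (log2 fold change −0.38 ± 0.097, adjusted p = 0.044), and Nusap1 (log2 fold change −0.29 ± 0.074, adjusted p = 0.044). Their list had a median of −0.089 against 0.12 for all genes, and of 0.17 against 0.37 with spike-in scaling, under which none of the 3 passed (log2 fold changes −0.18, −0.12 and −0.035). Of 31 tested replication-dependent histone genes, Hist1h2ae (log2 fold change −0.47 ± 0.12, adjusted p = 0.045) and Hist1h1d (log2 fold change −0.40 ± 0.095, adjusted p = 0.038) fell, and of 32 tested DNA replication genes Tk1 (log2 fold change 0.55 ± 0.14, adjusted p = 0.049) and Ccne2 (log2 fold change 0.48 ± 0.12, adjusted p = 0.045) rose, at a list median of 0.028 and where 5.18% of all genes were called higher. None of 16 G1 cyclins and CDK inhibitors was called, with Cdkn1c (log2 fold change 1.12 ± 0.53, adjusted p = 0.22) and Ccnd1 (log2 fold change 0.78 ± 0.34, adjusted p = 0.19) the largest. Of 32 tested lysosome and autophagy genes, 1 rose and Cd63 fell (log2 fold change −1.08 ± 0.20, adjusted p = 0.016), and none of 19 candidate dormancy factors was called, including Tfeb (log2 fold change −0.44 ± 0.15, adjusted p = 0.096) and Yy2 (log2 fold change −1.003 ± 0.54, adjusted p = 0.28). Of the 9 called genes of these lists, 0 and 3 were still called without DKO 24 h replicate 1 and replicate 2, and 0 and 0 without DKO 72 h replicate 1 and replicate 2. With the replicate block the counts higher and lower were 0 and 6 for mitosis, 4 and 1 for DNA replication, 2 and 3 for lysosome and autophagy and 2 and 0 for dormancy factors. With median centring they were 0 and 5 for mitosis, 0 and 0 for DNA replication and 0 and 4 for lysosome and autophagy, and with spike-in factors none of these lists held a call.

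The last lists held 1 or 2 calls each or none, where 6.98% of all genes were called. Among 10 tested Wnt targets Lef1 rose and Tcf7l1 fell (log2 fold change −0.56 ± 0.11, adjusted p = 0.017), and among 10 genes of LIF and STAT3 signalling 1 fell. Prdx1 rose (log2 fold change 0.68 ± 0.096, adjusted p = 0.0066) and Gstm1 fell (log2 fold change −0.41 ± 0.11, adjusted p = 0.048) among 14 tested antioxidant genes, Hspd1 rose (log2 fold change 0.54 ± 0.12, adjusted p = 0.025) among 15 heat shock chaperones, and Sesn1 rose (log2 fold change 0.62 ± 0.13, adjusted p = 0.022) among 19 genes of p53 and apoptosis. No gene of FGF and ERK feedback (17 tested, with log2 fold changes of −0.70 for Dusp4, adjusted p = 0.074 and 0.016 with the replicate block, and −0.99 for Fgfr2) or of Polycomb and H3K9 methylation (19 tested, with 0.35 for Suv39h2 and 0.31 for Ezh2) was called. Of the 7 called genes of these lists, 4 and 2 were still called without DKO 24 h replicate 1 and replicate 2, and 2 and 1 without DKO 72 h replicate 1 and replicate 2. With the replicate block the counts higher and lower were 3 and 2 for LIF and STAT3 signalling, 3 and 1 for Wnt targets, 2 and 2 for p53 and apoptosis, 2 and 0 for heat shock chaperones and 0 and 1 for FGF and ERK feedback. With median centring they were 0 and 2 for LIF and STAT3 signalling, 0 and 0 for heat shock chaperones and 0 and 1 for Polycomb and H3K9 methylation, and with spike-in factors Lef1 alone of these lists was called.

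**Figure D4:**
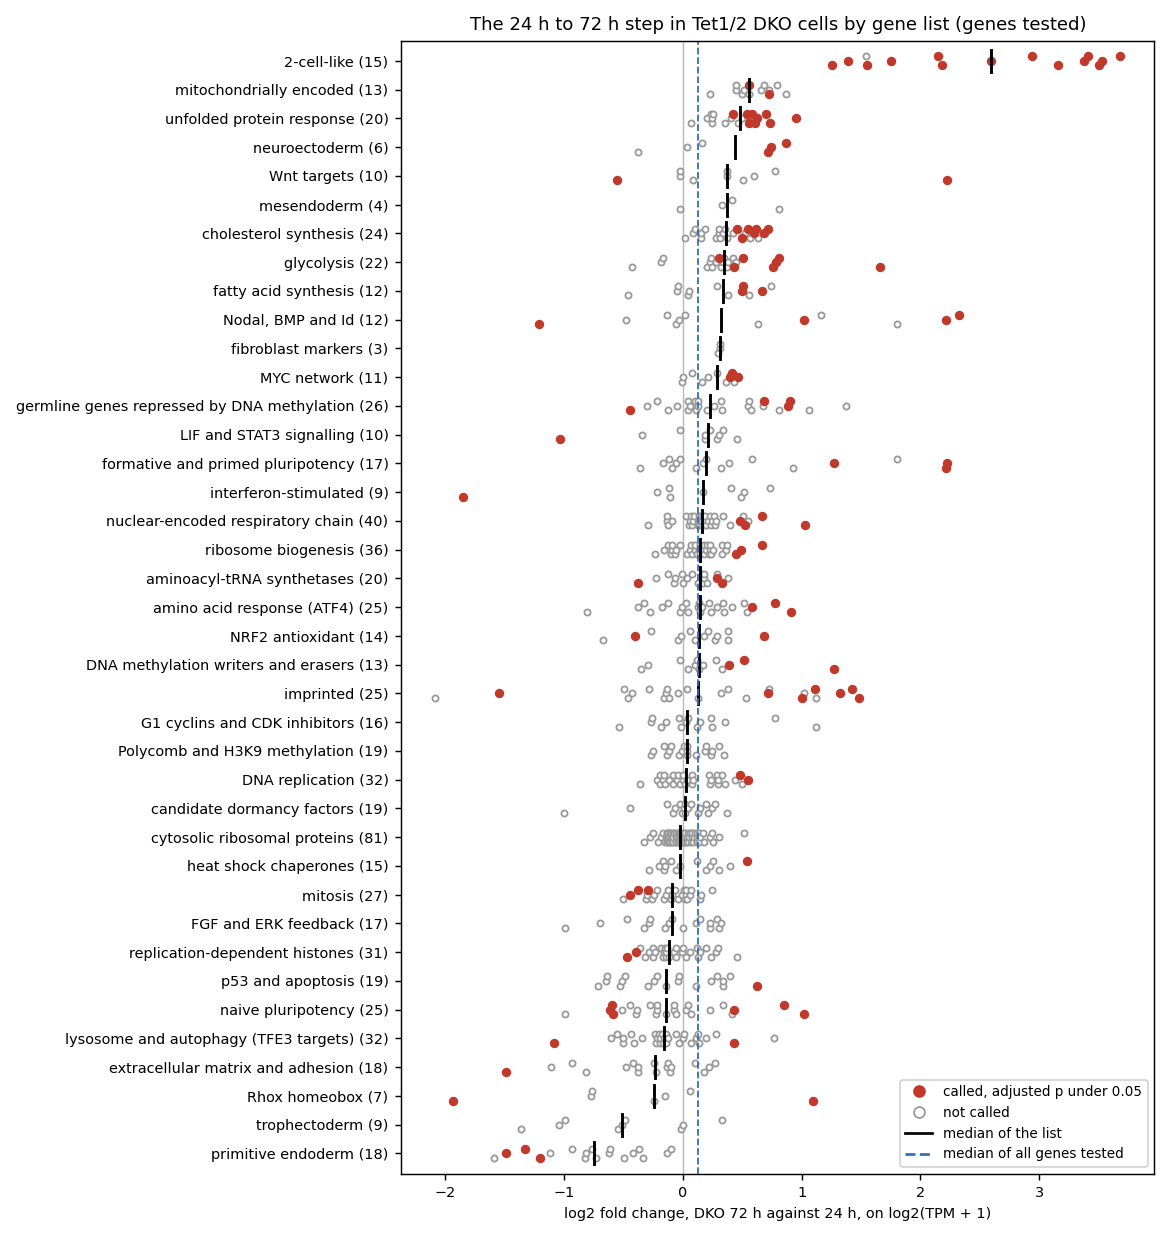
Log2 fold change at 72 h against 24 h in Tet1/2 DKO cells (x axis, on log2(TPM + 1)) of each tested gene of 39 lists (y axis, number tested in brackets), with called genes filled red, list medians as black bars and the median of all genes, 0.12, as a dashed line. The 2-cell-like list lies farthest to the right, at a median of 2.60, and primitive endoderm farthest to the left, at −0.75.

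The same step was measured in wild-type cells, in libraries of their own. There 974 genes rose and 1031 fell (6.13% and 6.49%), and over all genes the log2 fold change had a median of 0.03. Across the 15878 genes, the steps of the 2 genotypes correlated at r = 0.705 (Pearson) and rho = 0.717 (Spearman). This is a description, since genes are not replicates, and the 2 steps share no library. Of the 823 genes that rose in DKO cells, 795 (96.6%) had a positive step in wild-type cells and 439 were called there. Of the 285 that fell, 279 (97.9%) had a negative step and 229 were called. None was called in the opposite direction. The median step of the risers was 0.68 in DKO and 0.53 in wild-type cells, and that of the fallers −0.70 and −0.71.

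No gene was called for a difference between the 2 steps in limma (0 of 15878, 0%), while 945 genes (5.95%) had p under 0.05 before adjustment. The groups above are therefore set side by side without a claim that they differ. Zscan4f had a step of 3.68 in DKO cells and 1.74 in wild-type cells, whose 24 h levels were 11.7 and 16.3 TPM against 4.89 and 2.23 TPM in DKO cells. The difference for Zscan4f was 1.94 ± 0.64 (adjusted p = 0.78). Meg3 had a step of 1.63 in wild-type cells, and its difference was −0.15 ± 0.38. Lefty2 had a step of 1.98 and a difference of 0.23 ± 0.22, while its levels in DKO cells were higher at both times. Lef1 had a step of 3.04 in wild-type cells (49.9 and 31 TPM at 72 h) and a difference of −0.82 ± 0.30. Of the 18 primitive endoderm genes, 12 were called lower in wild-type cells, at a median of −1.97, and 9 had p under 0.05 before adjustment for the difference. For Lama1 the wild-type values were 314 and 219 TPM at 24 h and 34.5 and 54 TPM at 72 h, and the difference was 1.08 ± 0.37 (adjusted p = 0.78).

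The smallest p of the difference belonged to Kdelr3, Mthfd2, Cst3, P4ha1 and Sparc, all at adjusted p = 0.19. They were named for that rank, after their values were seen. Kdelr3, a retrieval receptor of the endoplasmic reticulum, stood at 20.01 and 20.1 TPM at 24 h and 24.1 and 22.1 TPM at 72 h in DKO cells and at 26.7 and 22 TPM at 24 h and 12.5 and 11 TPM at 72 h in wild-type cells (difference 1.18 ± 0.17). P4ha1, a collagen prolyl hydroxylase, stood at 10.7 and 12 TPM at 24 h and 12.2 and 15.9 TPM at 72 h in DKO cells and at 23.1 and 21.5 TPM at 24 h and 11.5 and 10.4 TPM at 72 h in wild-type cells (difference 1.24 ± 0.19). Sparc, a matrix protein, and Cst3, a protease inhibitor, had negative steps in both genotypes, at −0.42 and −1.69 for Sparc and −0.42 and −1.23 for Cst3 in DKO and wild-type cells. All 5 differences were positive, the wild-type value being the lower of the 2 steps.

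**Figure D5:**
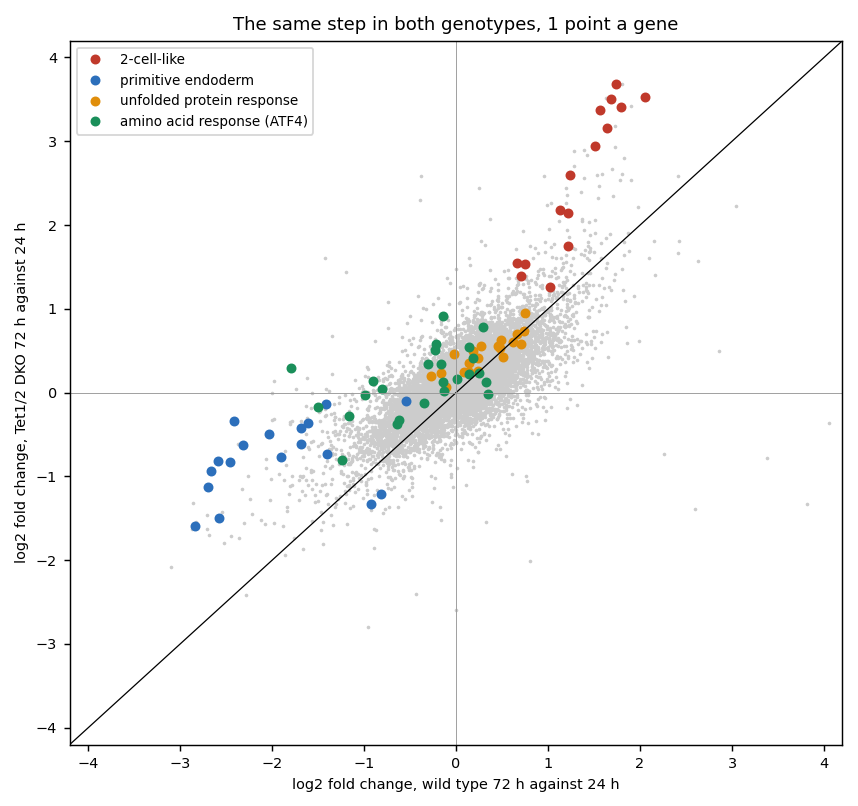
Log2 fold change at 72 h against 24 h in Tet1/2 DKO cells (y axis) against that in wild-type cells (x axis), 1 point a gene, with 4 gene lists coloured, a line of equal steps, and 4 genes beyond the axes not drawn. The 2-cell-like genes lie above the line, most primitive endoderm genes also above it with negative values on both axes, and the unfolded protein response genes around it.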

How the data were processed

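RNA-seq of 14 libraries (7 groups of 2) was taken as deposited. Total RNA was spiked with ERCC RNAs and depleted of ribosomal RNA. Per the submitters' processing notes, the authors trimmed reads with cutadapt 2.4, aligned them to mm10 with STAR 2.7.3a and quantified genes (GENCODE VM19, from the study's methods) with StringTie 2.0. The study's methods name other versions of STAR and StringTie. The deposited TPM carry no spike-in scaling. The strand setting used is not given in the sources used here, so genes that overlap on opposite strands may share reads. Depth, which the study gives in a figure, was not read here, and the number of libraries limits precision.

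TPM were summed per gene identifier (54446) and analysed as log2(TPM + 1). Genes averaging 1 TPM or more were fitted with limma 3.58.1 (R 4.3.3, eBayes with trend) over all 14 libraries in 7 groups, without a block. Adjusted p are Benjamini-Hochberg values over all 15878 genes, from tests of both directions. Errors are standard errors of the fit, n = 2 libraries a group, which the labels number as replicates of 1 line, so p-values measure only the spread between these samples. The code was tested on simulated data. Alternatives were other scalings (each library's median gene, or the factor between the study's spike-in normalized table and the deposited TPM), a pseudocount of 0.1, no filter or one at 5 TPM, only the libraries of the contrast, a replicate block and leaving out each library. The spike-in scaling with the block, that scaling over the same 15878 genes, and a block with the numbers of 1 genotype swapped, were added after seeing the data.

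The study states that corresponding time points of each biological replicate were handled in parallel. This was read as pairing the times within a genotype by replicate number, but it may also mean matching times of the 2 genotypes. The deviations of same-numbered DKO libraries correlated at 0.247 between 24 h and 72 h, 0.405 between 0 h and 24 h and 0.385 between 0 h and 72 h. Between the genotypes, same-numbered libraries correlated at −0.479 at 0 h, −0.553 at 24 h and −0.416 at 72 h, so the numbers were not taken to pair DKO with wild-type libraries, and the block was fitted within each genotype. The swapped block was added for this reason.

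The members and the 39 gene lists were chosen with earlier results of these data known. Named genes are the 12 largest rises and falls among called genes of 200 bp or longer that have a symbol that is neither Gm with a number nor a Rik clone name, and have libraries that do not overlap (640 higher, 263 lower), then Tet1 to Tet3, and per list up to 4 called genes or, with none called, 2. Genes named beyond these (Gm8300, Gm5662, Duxf3, Tmem92, Tcstv3, Dlk1, Mirg, Rtl1, H19, Impact, Lefty1, Otx2, Nanog, Tcl1, Alpl, Hsp90b1, Calr, Xbp1, Slc2a1, Galnt6, Kdelr3, P4ha1, Cst3, Sparc, marker genes and genes named only as not called) were chosen after their values were seen. A few genes that the rule names are not reported here. Promoter sequences are from RefSeq (GRCm38.p6), matched by symbol, and gene positions from the files (mm10).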

Additional observations from a re-analysis of the deposited data

Results flagged for a closer look

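Among the 823 genes called higher in DKO cells, 11 had DKO libraries that did not overlap and both wild-type libraries at 72 h below both at 24 h, the opposite order to the DKO libraries. The same was so, with directions exchanged, for 3 of the 285 genes called lower. The genes named by the rule that were among them are Mthfd2, Aldh18a1 and Yars, and the test of the difference between the steps did not call any of the 3. Mthfd2 stood at 19.2 and 19.96 TPM at 24 h and 19.1 and 16.3 TPM at 72 h in wild-type cells, and its DKO step exceeded the wild-type step by 1.05 (log2, adjusted p = 0.19 in limma). Aldh18a1 stood at 17.9 and 18.1 TPM at 24 h and 15.8 and 14.9 TPM at 72 h there, with an excess of 0.80 (adjusted p = 0.52). Yars stood at 55.6 and 56.3 TPM at 24 h and 55.1 and 50.9 TPM at 72 h there, with an excess of 0.36 (adjusted p = 0.71). At 24 h the DKO values of Mthfd2 (8.24 and 9.42 TPM) and Aldh18a1 (12.4 and 11.3 TPM) were below the wild-type ones.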

How the results depend on the processing

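In DKO cells the counts of genes called higher and lower were 241 and 17 with spike-in factors, 219 and 17 with these over the same 15878 genes, 467 and 505 with median centring, 1 and 0 with only the 4 libraries of the contrast (2912 at an unadjusted p under 0.05), 1723 and 564 with the replicate block, 2316 and 160 with spike-in factors and the block, and 2016 and 638 with crossed numbers. Leaving out 1 library gave 5 to 587 higher and 2 to 170 lower. In wild-type cells the same counts were 78 and 102 with spike-in factors, 82 and 113 over the same genes, 311 and 250 with only the contrast, 1539 and 1571 with the block, 583 and 620 with both, and 1695 and 1709 with crossed numbers, and leaving out 1 library gave 162 to 536 higher and 225 to 559 lower. For the difference between the steps, 9 genes were called without a filter and 9 with spike-in factors and the block, and 0 under every other setting. The lone library of a group was assumed to vary like the other groups. The pseudocount and the filters kept the counts of both steps within 1.5 times. Tet3 turned to −0.0604 with median centring. Of 96 genes named by the rule and called, 96 kept their direction wherever they were tested under a setting, 96 stayed called with the replicate block, 74 with median centring, 31 with spike-in factors, 5 without DKO 72 h replicate 2 and 1 with only the contrast. Of the named genes not called, the block called H19, Lefty1, Otx2, Foxa1, Gata4, Rps20, Dusp4 and Tcstv3. With 2 libraries a group and no depth at hand, small changes in genes of low TPM were not detectable. The cause of the shifts was not tested.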

Other observations

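Like Lef1, Lefty2, Slc16a3 and Rhox5, Galnt6 was called whichever DKO library was left out, and it is named here after its values were seen. Galnt6, an enzyme that starts O-linked sugar chains, stood at 8.95 and 9.11 TPM at 24 h and 2.88 and 2.83 TPM at 72 h (log2 fold change −1.38 ± 0.13, adjusted p = 0.0026), with a step of −1.15 in wild-type cells. Its replicates lay close together at either time.

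Protein-coding genes made up 77.5% of the genes tested, 81.0% of those that rose and 93.3% of those that fell in DKO cells, and pseudogenes 9.604%, 6.197% and 1.404%. The 300-base promoter windows of genes that rose and fell held a median of 21 and 20 CpG dinucleotides, against 21 over all tested genes with a window.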
